A study of Mus musculus with 10 samples.

Results

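Small nucleolar RNA (snoRNA) host genes and nuclear long RNAs were followed in muscle stem cells that were either left in culture with an HDAC6 inhibitor, left in culture with its solvent, or taken fresh. The members were chosen by name: Snhg1, Snhg6, Snhg8, Snhg12, Gas5 and Zfas1, which are long RNAs with snoRNAs in their introns, and Neat1 and Malat1, which stay in the nucleus. All 8 are among the 12803 genes of the deposited table. The cells came from limb muscles of young male C57BL/6 mice and were sorted for VCAM after removal of CD45+, CD31+ and Sca1+ cells. In 4 libraries the cells had spent 24 h in culture with 40 µM Tubastatin A, a small-molecule inhibitor of the cytoplasmic deacetylase HDAC6. In 3 libraries they had spent 24 h in the same medium, Ham's F-10 with horse serum on a coated plastic surface, with DMSO as the vehicle. The remaining 3 libraries are of cells taken at 0 h, called fresh here. The labels give the vehicle as the treatment of fresh cells too. Every library is 1 animal, so the p-values measure the spread between these animals and their libraries. The labels name no transgene or deleted gene in any group.

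A snoRNA host gene makes a spliced RNA whose introns hold snoRNAs. The snoRNAs are trimmed out of the excised introns, join a set of core proteins and guide the chemical modification of ribosomal RNA, while the exons of hosts such as Gas5 have little coding potential and are removed quickly by nonsense-mediated decay when ribosomes engage them. Many hosts start with a run of pyrimidines, the 5′ terminal oligopyrimidine tract that ribosomal protein genes carry too, and Gas5 is named for its accumulation in growth-arrested cells. Neat1 is the scaffold of paraspeckles, nuclear bodies that form around it, and Malat1 is an abundant RNA of nuclear speckles, where splicing factors collect. The 3′ end of Malat1 and of the long form of Neat1 is a triple helix and not a poly(A) tail. The labels give the molecule as polyA RNA, so for both genes the share of molecules that could be captured was not measured.

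The start regions of these genes are shown because the pyrimidine run is the sequence feature that defines much of the family. RefSeq start windows (GRCm38.p6) were matched for 6 of the 8 genes, with 2 start sites for Gas5. Snhg6 and Neat1 were not matched. Each line gives 40 bases before the start and 20 bases from it, 5′ to 3′ on the gene's strand, so the start is position 41. Capitals mark the unbroken pyrimidine run that covers the start.
Snhg1, chr19:8723447-8723506, plus strand: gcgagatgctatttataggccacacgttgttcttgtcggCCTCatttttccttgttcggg
Snhg8, chr3:123508317-123508376, minus strand: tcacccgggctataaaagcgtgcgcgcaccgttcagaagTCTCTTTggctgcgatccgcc
Snhg12, chr4:132308638-132308697, plus strand: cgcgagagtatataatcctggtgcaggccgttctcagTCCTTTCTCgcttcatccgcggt
Gas5, second start, chr1:161035126-161035185, plus strand: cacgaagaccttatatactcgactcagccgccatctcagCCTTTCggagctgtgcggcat
Gas5, first start, chr1:161034561-161034620, plus strand: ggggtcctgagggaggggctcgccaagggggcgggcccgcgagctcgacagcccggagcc
Zfas1, chr2:167062894-167062953, plus strand: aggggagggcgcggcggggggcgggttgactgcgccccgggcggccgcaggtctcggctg
Malat1, chr19:5802653-5802712, minus strand: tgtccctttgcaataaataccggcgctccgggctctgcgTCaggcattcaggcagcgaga
The run was 9 bases long in Snhg12, 7 in Snhg8, 6 at the second start of Gas5 and 4 in Snhg1. These lengths include bases before the start. Counted from the start on, the pyrimidines were 6, 6, 5 and 3 in the same order, and the start base of Snhg12 is a T. It was 2 bases in Malat1 and was missing at the first start of Gas5 and in Zfas1. A run of at least 4 pyrimidines over the start was present in 4 of the 7 windows, and in 14.0% of 32851 RefSeq start windows. Runs of at least 3, 6, 7 and 8 were counted too. They were present in 4, 3, 2 and 1 of the 7 windows, and in 18.7%, 7.2%, 5.3% and 3.9% of all windows.

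The same 4 windows carry the letters TATA between 40 and 20 bases before the start on the gene's strand, which 5.3% of all windows do. Both features together were found in those 4 windows and in 0.7% of all windows. This second search was chosen after the sequences had been read, and its letters lie inside the TATAA search. Over the whole windows of 300 bases (250 before and 50 from the start) and on either strand, TATAA was in 4 of 7 member windows and 24.9% of all, CCAAT in 1 and 37.4%, GGAA in 7 and 96.0%, and CACGTG in 0 and 7.2%. These matches are letters in a window and were not set against any measurement of binding.

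In the GENCODE M21 annotation (GRCm38) the 6 hosts hold 26 loci annotated as snoRNA. Snhg1 (chromosome 19, 8723475 to 8726443, plus strand) holds 8, Gas5 (chromosome 1, 161034422 to 161038539, plus) 9, Snhg12 (chromosome 4, 132308623 to 132311024, plus) 4 and Zfas1 (chromosome 2, 167062934 to 167065862, plus) 3. Snhg8 (chromosome 3, 123507552 to 123508404, minus) and Snhg6 (chromosome 1, 9941959 to 9944118, minus) hold 1 each. Of the 26 loci, 25 also lie inside an exon of some annotated transcript, because transcripts that keep introns are listed, and the exon union covers 91.3% to 100% of the span of every host except Snhg6, where it covers 53.1%. For Snhg1, Snhg8, Snhg12 and Gas5, reads of spliced and of unspliced RNA therefore cannot be told apart in these values. Neat1 (chromosome 19, 5824708 to 5845478, minus) and Malat1 (chromosome 19, 5795690 to 5802672, minus) lie 22.0 kb apart on the same strand.

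A pair of snoRNAs shows what the hosts carry. Both are box C/D snoRNAs, which guide 2′-O-methylation, and the capitals mark the letters TGATGA of the C box and CTGA of the D box.
Snord87, in the intron of Snhg6, chr1:9942463-9942549, minus strand: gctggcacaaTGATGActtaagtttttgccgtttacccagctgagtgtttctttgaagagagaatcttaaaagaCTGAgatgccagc
Snord47, in Gas5, chr1:161038082-161038158, plus strand: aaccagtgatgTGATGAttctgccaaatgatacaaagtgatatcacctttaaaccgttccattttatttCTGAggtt
The first box begins at base 11 of 87 in Snord87 and at base 12 of 77 in Snord47. The second begins at base 75 and at base 70. Of the 26 snoRNA loci, Snord87 is the one that the table lists as a gene of its own.

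Values are RPKM, read counts divided by gene length and by library size, and the library size the authors used was a scaled one. Reads summed over the table's genes came to between 37.5M and 55.3M per library, and 1 read in a gene of 1 kb equals 0.0160 to 0.0339 RPKM. The ratio of table reads to scaled library size was 1.39 to 1.41 in fresh libraries and 0.829 to 0.928 in cultured ones. A comparison with fresh cells therefore depends on the scaling more than a comparison between cultures does. Muscle stem cell markers (8 of 8 measured) summed to 281 to 300.3 RPKM with Tubastatin A, 477 to 501.0 RPKM with vehicle and 1979 to 2170 RPKM in fresh cells. Pax7 ranged over 1.68 to 2.65, 4.21 to 5.40 and 15.3 to 33.2 RPKM in the same groups. In bulk RNA, fewer cells of a type and less RNA per cell cannot be told apart.

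Among the 8 genes, Gas5 was at the highest mean level in vehicle and fresh cells and Malat1 with Tubastatin A. Gas5 averaged 31.7 ± 4.83 RPKM with Tubastatin A, 26.4 ± 3.88 RPKM with vehicle and 49.9 ± 13.6 RPKM in fresh cells (SD, n = 4, 3 and 3). Malat1 averaged 44.9 ± 20.8, 14.9 ± 7.10 and 34.0 ± 13.4 RPKM in the same groups. With Tubastatin A, 90.8% of the table's genes had a lower mean than Malat1 and 86.5% a lower mean than Gas5, and the ranges of these RNAs overlapped in that group and in fresh cells but not in vehicle. The lowest means were those of Snhg12 and Snhg8 with Tubastatin A, 1.08 ± 0.329 and 1.29 ± 0.128 RPKM, and of Neat1 in vehicle and fresh cells, 0.774 ± 0.214 and 1.60 ± 0.504 RPKM. The level of Neat1 is per its full exon union of 20771 bases. In vehicle it had 561 to 950 reads per library, against 87 to 107 for Snhg8, so its low rank depends on that length. Snhg6, Zfas1 and Snhg1 stood between the highest and the lowest means. In fresh cells their means were 9.53, 10.1 and 9.02 RPKM, and all 3 ranges overlapped. In vehicle cells Snhg6 (15.0 to 20.5 RPKM) lay above Zfas1 (6.10 to 9.98 RPKM) and Snhg1 (4.83 to 7.29 RPKM), which overlapped each other.

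**Figure D1:**
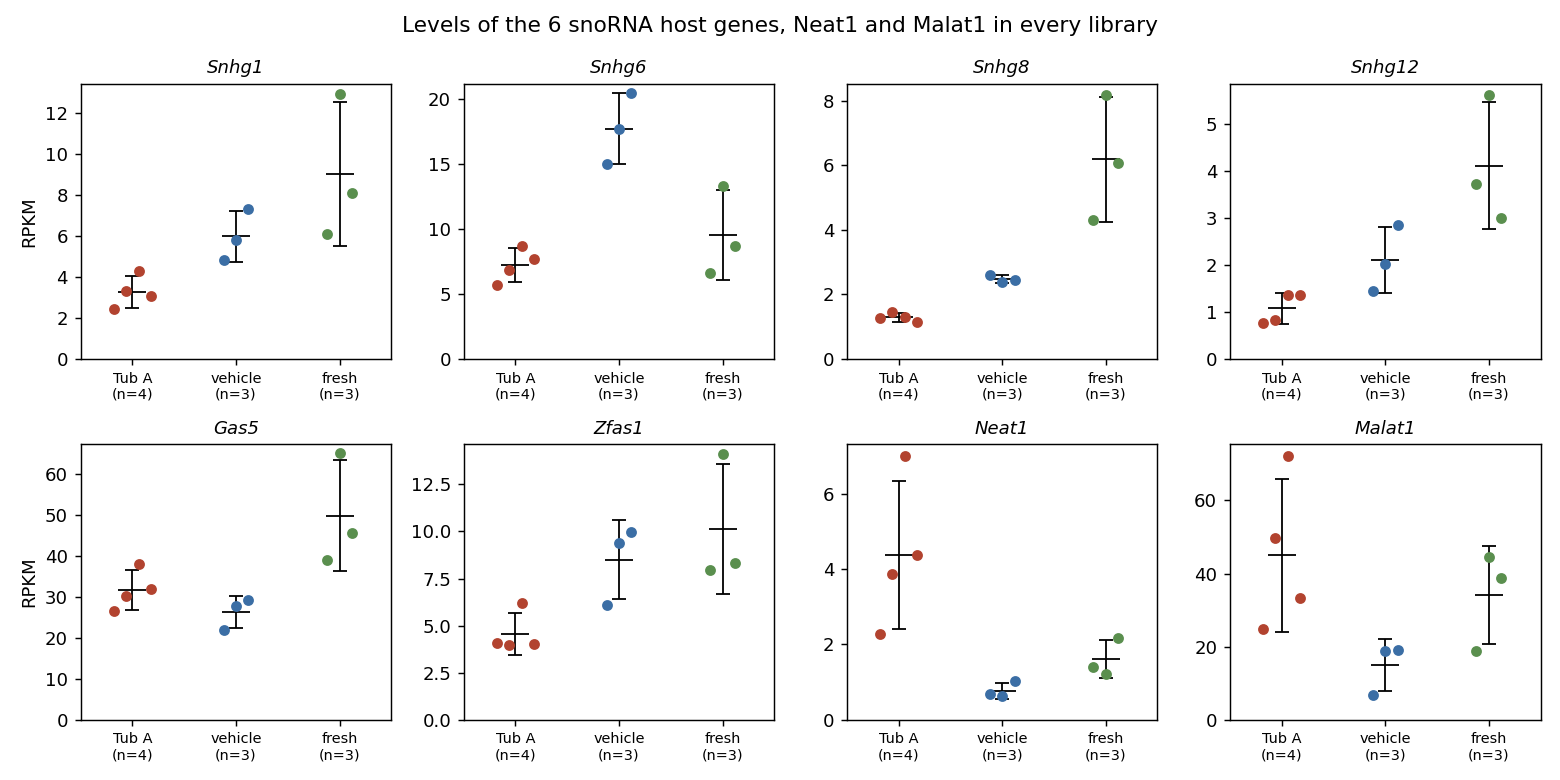
RPKM of each of the 8 genes in every library, 1 panel per gene with its own linear axis; points are libraries of 1 animal, bars are the mean ± SD of Tubastatin A (Tub A, n = 4), vehicle (n = 3) and fresh cells (n = 3). Snhg6 is highest in vehicle (15.0 to 20.5 RPKM), Snhg8 falls into 3 separate ranges, and Neat1 and Malat1 are lowest in vehicle on average.

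With Tubastatin A, 5 of the 6 snoRNA hosts were lower than with vehicle and both nuclear RNAs were higher. A gene is called where limma on log2(RPKM + 1) gave an adjusted p under 0.05 over all 12803 genes. The hosts that fell were Snhg6, Snhg8, Zfas1, Snhg1 and Snhg12, all to 0.41 to 0.55 of their vehicle mean. Gas5 was the host that was not called. Without vehicle replicate 3 the number of hosts called lower was 2. Of all genes tested, 59.3% were called in this comparison, 29.6% as higher and 29.7% as lower, so being called is common in this table. The median log2 change was -0.66 over the 6 hosts and 1.54 over the 2 nuclear RNAs, against 0.02 over all genes. In 6 of the 8 genes the 2 groups of libraries did not overlap, as in 68.6% of all genes.

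Snhg6, the host of Snord87, had 5.67, 6.86, 8.67 and 7.73 RPKM with Tubastatin A, against 15.0, 17.7 and 20.5 RPKM with vehicle. Every treated library was below every vehicle library. The log2 change was -1.19 with a standard error of 0.204 (limma, adjusted p = 0.000357). Snhg8, the host of Snora24, had 1.28, 1.45, 1.29 and 1.13 RPKM with Tubastatin A, against 2.61, 2.38 and 2.43 RPKM with vehicle. These groups were tight and apart, on 48 to 206 reads per library across all groups. Its log2 change was -0.60 ± 0.160 (SE; limma, adjusted p = 0.00641), on a scale whose pseudocount of 1 RPKM understates the change of genes this low; its mean ratio was 0.52.

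Snhg1, a host of box C/D snoRNAs, had 2.42, 3.32, 4.31 and 3.05 RPKM with Tubastatin A, against 4.83, 5.82 and 7.29 RPKM with vehicle. Its groups did not overlap, and the highest treated library lay close to the lowest vehicle library. The change on the log2 scale was -0.71 ± 0.224 (SE; limma, adjusted p = 0.0166), and without vehicle replicate 3 the adjusted p was 0.0784. Snhg12, which holds 3 H/ACA snoRNAs and Snord99, had 0.767, 0.825, 1.36 and 1.37 RPKM with Tubastatin A, against 1.44, 2.02 and 2.85 RPKM with vehicle. The upper pair of treated libraries reached almost to the lowest vehicle library. The fitted log2 change was -0.57 ± 0.201 (SE; limma, adjusted p = 0.0292). It no longer passed the threshold without Tubastatin A replicate 1 or 2 (log2 change -0.49 and -0.51) or without vehicle replicate 2 or 3 (-0.57 and -0.40).

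Zfas1, the host of Snord12, had 4.07, 3.97, 6.22 and 4.00 RPKM with Tubastatin A, against 6.10, 9.40 and 9.98 RPKM with vehicle. A single treated library, replicate 3, stood above the lowest vehicle library, so the groups overlapped. The log2 change was -0.76 ± 0.220 (SE; limma, adjusted p = 0.0104), and without vehicle replicate 3 it was -0.65 with an adjusted p of 0.0518. Zfas1 overlaps Znfx1 on the opposite strand by 82 bases, and use of strand in the authors' counting is not given in the sources used here. The deposited values of Zfas1 gave whole reads at a length of 1901 bases and not at its annotated exon union of 2929 bases, so its level per length is relative to a gene model that differs from the one shown here.

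Gas5 had 26.5, 30.3, 38.1 and 31.8 RPKM with Tubastatin A, against 22.0, 27.8 and 29.4 RPKM with vehicle. The groups overlapped, with a treated library highest and a vehicle library lowest. Its log2 change was 0.25 ± 0.179 (SE; limma, adjusted p = 0.244). Under a scaling to equal summed RPKM without mitochondrial and the 10 most abundant genes it was 0.43 with an adjusted p of 0.0325. Gas5 also had the most reads of the hosts, 3969 to 7231 per library, so counting noise is the smallest there.

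Neat1 had 2.28, 3.88, 6.99 and 4.37 RPKM with Tubastatin A, against 0.672, 0.630 and 1.02 RPKM with vehicle. The groups were far apart, although the treated libraries differed 3.07-fold among themselves. The change on the log2 scale was 1.53 ± 0.245 (SE; limma, adjusted p = 0.00021), a mean ratio of 5.65. Malat1 had 24.9, 49.7, 72.0 and 33.2 RPKM with Tubastatin A, against 6.68, 18.9 and 19.0 RPKM with vehicle. Every treated library was above every vehicle library, but the spread within each group was wide. The fitted log2 change was 1.55 ± 0.421 (SE; limma, adjusted p = 0.00748), a mean ratio of 3.02. On this scale the changes of Neat1 and Malat1 were above those of 96.9% and 97.0% of all genes. The pseudocount of 1 RPKM understates the changes of genes at low levels, so these ranks depend on level too. The calls of Snhg6, Snhg8, Neat1 and Malat1 kept their direction and their side of the threshold under all 21 alternatives tried.

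Markers of other cell types differed between these cultures as well. The summed levels were 4.01 to 5.53 RPKM with Tubastatin A against 1.55 to 1.74 RPKM with vehicle for endothelial genes (6 of 6 measured), and 2.53 to 4.03 against 0.731 to 0.946 RPKM for immune genes (3 of 5 measured). They were 1.95 to 4.14 RPKM with Tubastatin A against 0.576 to 1.26 RPKM with vehicle for fibro-adipogenic progenitor genes (5 of 5). For Schwann genes (3 of 4 measured) they were 1.65 to 2.68 RPKM with Tubastatin A against 0.838 to 1.17 RPKM with vehicle. Pericyte and smooth muscle genes (5 of 5) summed to 11.3 to 61.7 RPKM with Tubastatin A against 174 to 239 RPKM with vehicle, and tenocyte genes (4 of 4) to 2.12 to 8.92 against 65.8 to 76.0 RPKM. Myofibre genes (5 of 5) summed to 3.61 to 328 RPKM with Tubastatin A against 15.4 to 23.6 RPKM with vehicle. Pecam1, 1 of the 6 endothelial genes, was near 0 in both, 0.191 to 0.248 RPKM with Tubastatin A against 0.181 to 0.448 RPKM with vehicle. The higher endothelial sum with Tubastatin A therefore came from other genes of that list, which are not shown singly. No value in the whole table is exactly 0, because its lowest values stand in for zeros, so a low marker value need not mean detection. The part of the cells that carry these markers in the changes of the long RNAs was not tested.

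**Figure D2:**
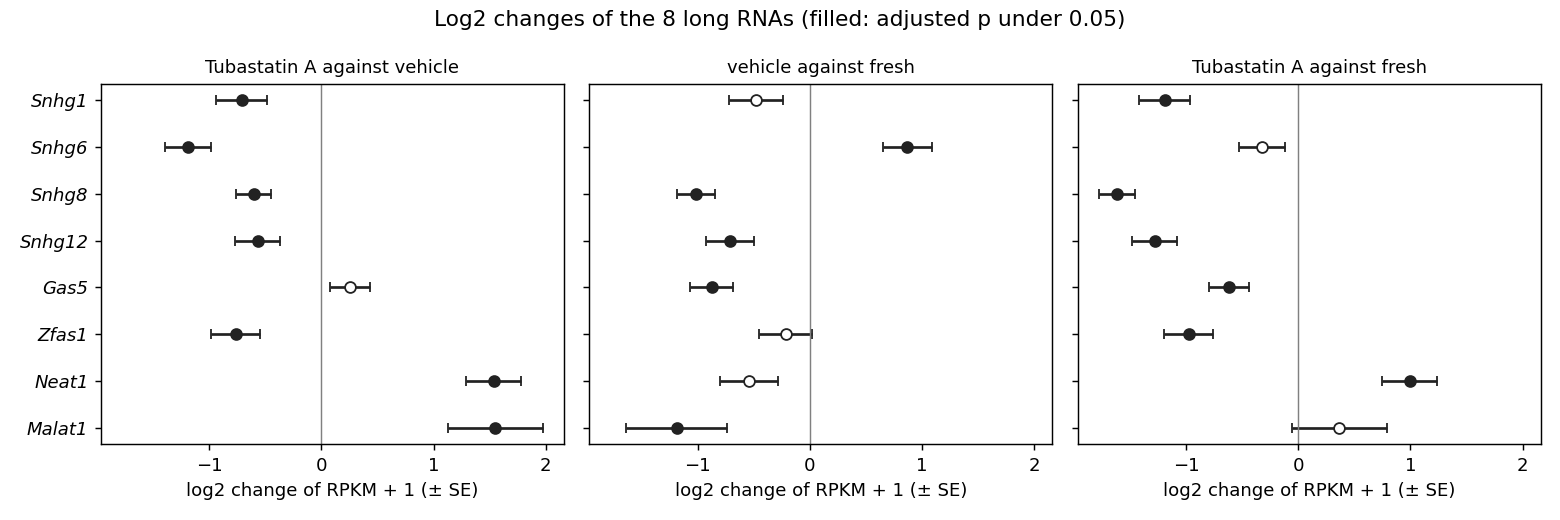
Log2 change of RPKM + 1 with its standard error for the 8 genes in the 3 comparisons; filled points have an adjusted p under 0.05 (limma, over 12803 genes), open points do not. In Tubastatin A against vehicle, 5 hosts lie between -1.19 and -0.57, Gas5 is open at 0.25, and Neat1 and Malat1 lie near 1.5.

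The second comparison sets cells after 24 h in culture with vehicle against fresh cells. Snhg8, Snhg12, Gas5 and Malat1 were lower in vehicle, Snhg6 was higher, and Snhg1, Zfas1 and Neat1 were not called. Without vehicle replicate 1, 2 genes were called lower in place of 4. Of all genes tested 67.0% were called, 32.0% as higher and 35.0% as lower. Scaled by the reads in the table, 6365 genes were higher and 2905 lower, in place of 4096 and 4484. The groups did not overlap in 5 of the 8 genes and in 67.6% of all genes. The host median was -0.60, against -0.03 over all genes.

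Snhg8 had 2.61, 2.38 and 2.43 RPKM with vehicle, against 4.29, 8.18 and 6.08 RPKM in fresh cells. All vehicle libraries were below all fresh ones. The log2 change was -1.01 ± 0.171 (SE; limma, adjusted p = 0.000227). Gas5 fell to 22.0, 27.8 and 29.4 RPKM with vehicle, against 39.0, 65.1 and 45.6 RPKM in fresh cells, also without overlap. Its log2 change was -0.87 ± 0.192 (SE; limma, adjusted p = 0.00159). Snhg12 had 1.44, 2.02 and 2.85 RPKM with vehicle, against 3.73, 5.61 and 3.00 RPKM in fresh cells, with a log2 change of -0.71 ± 0.215 (SE; limma, adjusted p = 0.0112). Its highest vehicle library was just under its lowest fresh library, and without vehicle replicate 1 the adjusted p was 0.0545.

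Snhg6 was the host that went up in culture. It had 15.0, 17.7 and 20.5 RPKM with vehicle, against 6.59, 13.3 and 8.68 RPKM in fresh cells, without overlap. Its log2 change was 0.87 ± 0.218 (SE; limma, adjusted p = 0.0038). Snhg1 (log2 change -0.48, adjusted p = 0.0962, limma) and Zfas1 (-0.21, adjusted p = 0.443) had overlapping groups. Without fresh replicate 1, Snhg1 had a log2 change of -0.70 and an adjusted p of 0.0177, and without fresh replicate 2 the sign of Zfas1 turned, to 0.03.

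Malat1 had 6.68, 18.9 and 19.0 RPKM with vehicle, against 18.9, 44.4 and 38.7 RPKM in fresh cells. The groups overlapped narrowly, as the upper vehicle libraries (18.93 and 19.02 RPKM) stood just above the lowest fresh library (18.9 RPKM). The change on the log2 scale was -1.18 ± 0.450 (SE; limma, adjusted p = 0.035), and the call was lost without vehicle replicate 1, where the log2 change was -0.72, and without fresh replicate 2 (-0.95) or 3 (-1.05). Neat1 had 0.672, 0.630 and 1.02 RPKM with vehicle, against 1.41, 1.22 and 2.17 RPKM in fresh cells. Those groups did not overlap, yet the log2 change of -0.54 ± 0.262 had an adjusted p of 0.0874 (limma). At a pseudocount of 0.1 it was -0.95 with an adjusted p of 0.0301.

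The scaling bears on this comparison. When libraries were scaled by their reads in the table, the median log2 change of all genes was 0.34 in place of -0.03. Snhg8 kept its call as lower and Snhg6 as higher. Gas5 (-0.28), Snhg12 (-0.26) and Malat1 (-0.60) then no longer passed the threshold. Snhg1 and Zfas1, not called in either case, turned to 0.05 and 0.33. The host median then was -0.10. Scaling to equal summed RPKM gave like values. Markers also moved with this comparison: endothelial genes summed to 1.55 to 1.74 RPKM with vehicle against 21.4 to 33.0 RPKM in fresh cells, immune genes to 0.731 to 0.946 against 10.2 to 21.6 RPKM, and fibro-adipogenic genes to 0.576 to 1.26 against 57.7 to 75.5 RPKM. Schwann genes (3 of 4 measured) summed to 0.838 to 1.17 RPKM with vehicle against 9.53 to 12.7 RPKM in fresh cells, and myofibre genes to 15.4 to 23.6 against 44.4 to 51.7 RPKM. Tenocyte genes were higher, at 65.8 to 76.0 RPKM with vehicle against 32.8 to 49.6 RPKM in fresh cells, and pericyte and smooth muscle genes overlapped, at 174 to 239 against 198 to 243 RPKM. Their part in the changes was not tested.

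The last comparison sets treated cells against fresh cells. It shares its libraries with the other comparisons, so it is no separate evidence. Of all genes 64.9% were called, 29.8% as higher and 35.2% as lower, and among the 8 genes 5 hosts were lower and Neat1 was higher. Scaled by the reads in the table, 6916 genes were higher and 2590 lower, in place of 3811 and 4503. The groups did not overlap in 6 of the 8 genes and in 61.3% of all genes. Snhg8 had the largest fall of the 8, to a mean of 1.29 ± 0.128 RPKM with Tubastatin A, against 6.18 ± 1.95 RPKM in fresh cells (log2 change -1.62, limma, adjusted p = 3.36e-06). Snhg12 (-1.28, adjusted p = 0.000145) and Snhg1 (-1.19, adjusted p = 0.000567) fell too. So did Zfas1 (-0.98, limma, adjusted p = 0.00203) and Gas5 (-0.62, adjusted p = 0.00959). Scaled by table reads, the median of all genes was 0.40 in place of -0.03, Zfas1 (-0.38) was not called and Gas5 turned to 0.05.

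Snhg6 with Tubastatin A, 7.23 ± 1.28 RPKM, was not distinguished from fresh cells at 9.53 ± 3.45 RPKM (log2 change -0.32, limma, adjusted p = 0.191), and its sign turned to 0.29 when scaled by table reads. Without fresh replicate 1 the log2 change of Snhg6 was -0.53 and it was called lower (limma, adjusted p = 0.0307). Neat1 was 4.38 ± 1.96 RPKM with Tubastatin A and 1.60 ± 0.504 RPKM in fresh cells, with no overlap and a log2 change of 0.99 ± 0.245 (SE; limma, adjusted p = 0.00366). Malat1 (log2 change 0.37, adjusted p = 0.465) had overlapping groups. Scaled by table reads it was 1.03 and passed the threshold.

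Ratios of genes within a library do not depend on how libraries are scaled, and 4 such ratios were chosen after the values had been seen. Gas5 over Snhg6 sets the host that was not called against the host with the largest fall. The ratio was 4.67, 4.42, 4.39 and 4.12 with Tubastatin A, against 1.47, 1.57 and 1.44 with vehicle. The fresh libraries had 5.92, 4.89 and 5.25. Treated and vehicle libraries were far apart on this ratio, with a spread within each group that was much smaller than for either gene alone. The mean log2 difference was 1.56 between Tubastatin A and vehicle (exact two-sided permutation p = 0.0571, the smallest that 35 splits allow) and -1.84 between vehicle and fresh (exact permutation p = 0.1, the smallest of 20 splits). Between Tubastatin A and fresh cells it was -0.28, again without overlap (exact permutation p = 0.0571).

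Neat1 over Gas5 was 0.0862, 0.128, 0.184 and 0.137 with Tubastatin A, against 0.0306, 0.0227 and 0.0347 with vehicle. The groups did not overlap (mean log2 difference 2.16, exact two-sided permutation p = 0.0571). Malat1 over Neat1 was 10.9, 12.8, 10.3 and 7.60 with Tubastatin A, against 9.94, 30.0 and 18.6 with vehicle, and these overlapped (mean log2 difference -0.79, exact two-sided permutation p = 0.229). With 4 against 3 libraries this exact permutation test cannot go below 0.0571, and with 3 against 3 not below 0.1, so no ratio could pass 0.05.

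**Figure D3:**
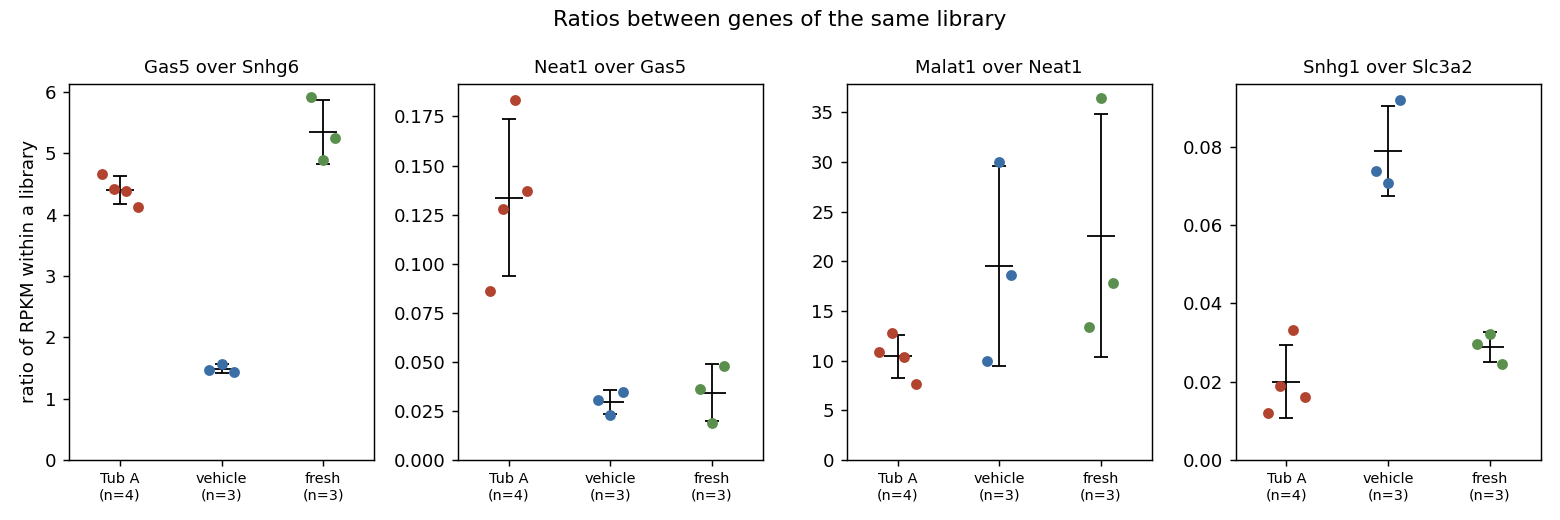
Ratio of RPKM of a pair of genes within each library (linear axes); points are libraries, bars the mean ± SD of Tubastatin A (Tub A, n = 4), vehicle (n = 3) and fresh cells (n = 3). Gas5 over Snhg6 lies between 4.12 and 4.67 with Tubastatin A and between 1.44 and 1.57 with vehicle, and Snhg1 over Slc3a2 is highest in the vehicle libraries.

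For Snhg1, Snhg6, Snhg8, Snhg12, Zfas1 and Neat1, a measured gene within 5 kb was read beside each. Slc3a2, the heavy chain of amino acid transporters, starts 106 bases from Snhg1 on the opposite strand. It had 202.1, 175.7, 129.7 and 190.3 RPKM with Tubastatin A, against 65.3, 82.2 and 79.1 RPKM with vehicle. It was higher with Tubastatin A (log2 change 1.19, limma, adjusted p = 0.000705), where Snhg1 was lower. Slc3a2 was lower in vehicle, 75.5 ± 9.00 RPKM, against 311.7 ± 98.8 RPKM in fresh cells (log2 change -1.99, adjusted p = 1.47e-05). The ratio of Snhg1 to Slc3a2 was 0.0120, 0.0189, 0.0332 and 0.0160 with Tubastatin A, 0.0740, 0.0708 and 0.0922 with vehicle and 0.0296, 0.0322 and 0.0246 in fresh cells. Vehicle libraries stood apart from both other groups, with mean log2 differences of -2.07 for Tubastatin A against vehicle (exact two-sided permutation p = 0.0571) and 1.46 for vehicle against fresh (exact permutation p = 0.1).

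Snord87, the snoRNA printed above, followed its host Snhg6 on few reads. It had 1.47, 2.20, 4.32 and 0.464 RPKM with Tubastatin A, which are 8, 11, 17 and 2 reads, against 6.71, 5.90 and 8.72 RPKM with vehicle, which are 28, 22 and 34 reads. The groups did not overlap, and the log2 change was -1.52 ± 0.359 (SE; limma, adjusted p = 0.00323). Fresh libraries had 2.63, 5.84 and 3.33 RPKM, and between vehicle and fresh cells the log2 change was 0.76 and not called (limma, adjusted p = 0.102). A library made from polyA RNA is not designed to hold mature snoRNAs, so whether these reads come from the snoRNA or from unspliced Snhg6 cannot be told apart here.

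The other neighbours moved in both directions. Znfx1, whose transcription start is 81 bases from that of Zfas1, was higher with Tubastatin A, 4.50 ± 1.05 against 2.43 ± 0.567 RPKM with vehicle (log2 change 0.67, limma, adjusted p = 0.0385), where Zfas1 was lower. Trnau1ap, near Snhg12, was lower with it (-0.44, adjusted p = 0.0216). Prss12, a serine protease 954 bases from Snhg8, was at 1.56 ± 0.371 RPKM with Tubastatin A against 0.0810 ± 0.0822 RPKM with vehicle (1.23, limma, adjusted p = 8.15e-06), where the vehicle values rest on 1 to 19 reads per library. Frmd8, 4223 bases from Neat1, was at 18.5 ± 0.870 RPKM with Tubastatin A against 11.2 ± 1.16 RPKM with vehicle (0.68, adjusted p = 0.000197), in the direction of Neat1. In this comparison Slc3a2, Znfx1 and Prss12 rose where their host fell, while Snord87, Trnau1ap and Frmd8 moved with their partner.

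**Figure D4:**
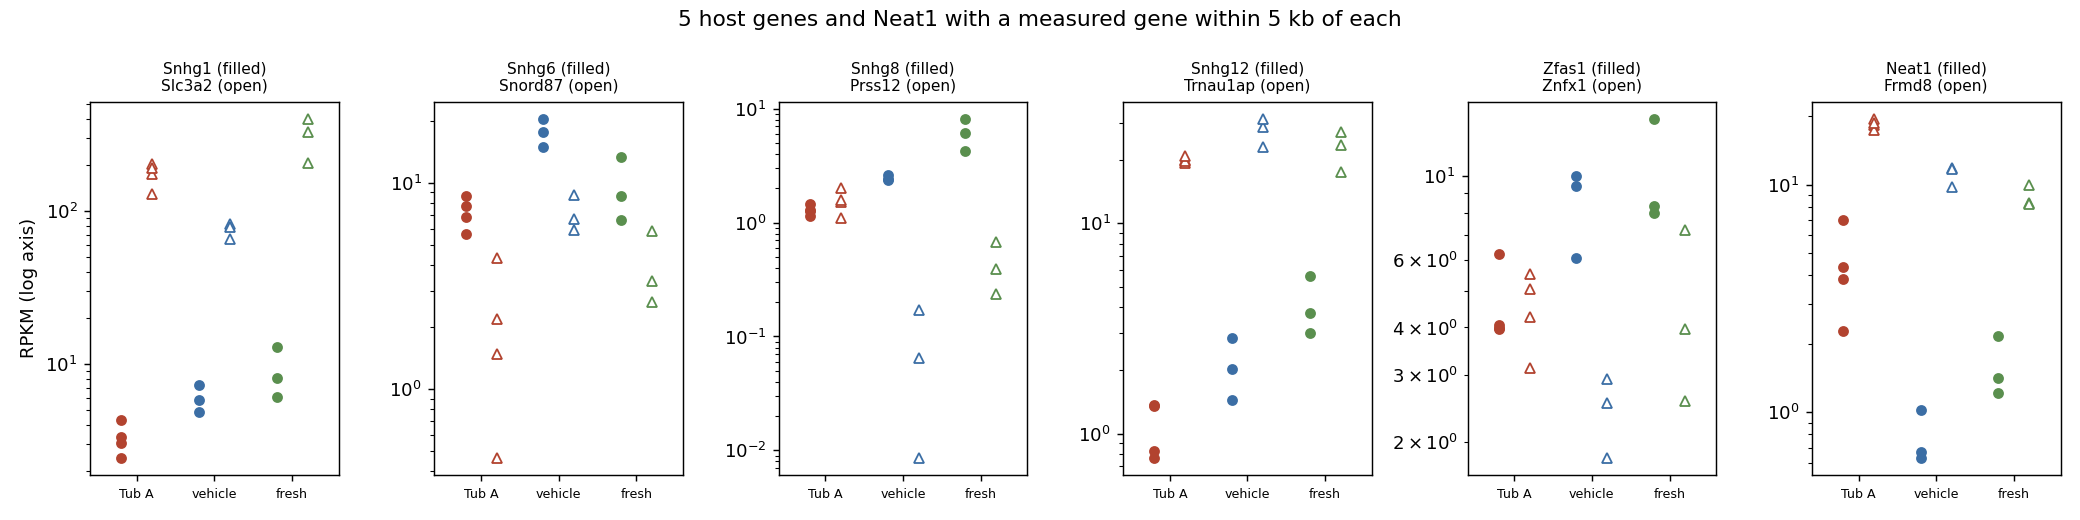
RPKM (log axis, a scale for each panel) of 5 hosts (Snhg1, Snhg6, Snhg8, Snhg12 and Zfas1) and Neat1 (filled circles) and of a measured gene within 5 kb of each (open triangles), by library, in Tubastatin A (Tub A), vehicle and fresh cells. Slc3a2 lies at 129.7 to 202.1 RPKM with Tubastatin A and at 65.3 to 82.2 RPKM with vehicle, the opposite order to Snhg1.

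On the scale of log2(RPKM + 1), the 8 genes varied more between animals than most genes of the table did. The pseudocount narrows the spread of genes at low levels, and a comparison with genes of like level was not made. The residual standard deviation on the log2 scale was 0.694 for Malat1 and 0.385 for Neat1, larger than for 99.6% and 96.4% of genes. Among the hosts it ran from 0.22 for Snhg8, larger than for 67.5% of genes, to 0.342 for Snhg1, larger than for 93.9%. The hosts tended to be high or low in the same library. Tubastatin A replicate 3 was the highest treated library in 4 of the 6 hosts and for both nuclear RNAs, as for 26.1% of all genes. Vehicle replicate 3 was the highest vehicle library in 5 hosts and for both nuclear RNAs (36.5% of all genes), and vehicle replicate 1 the lowest in 5 hosts (42.0%). Fresh replicate 2 was the highest fresh library in 6 of 6 hosts (35.3%). Of the libraries, Tubastatin A replicate 3 also had the fewest reads in the table. The part of depth in this order was not tested.

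Across the 10 libraries, and as a description that mixes groups and animals, the 15 pairs of hosts had Pearson correlations of log2(RPKM + 1) between -0.10 and 0.96, with a median of 0.72. Snhg1 with Zfas1 was the highest pair and Gas5 with Snhg6 the lowest. Host and nuclear RNA pairs lay between -0.65 and 0.61, with a median of -0.25, and Neat1 with Malat1 had 0.78. Among the 3380 genes whose log2(RPKM + 1) averaged 4 or more, those most like the mean of the 6 hosts were Znrd1 (r = 0.985), Myl12a (0.976), Ddrgk1 (0.976), Snord55 (0.967) and Rpl10a (0.967). Snord55, itself a snoRNA, averaged 12.4 ± 4.05 RPKM with Tubastatin A, 31.9 ± 3.41 RPKM with vehicle and 63.3 ± 26.5 RPKM in fresh cells. The genes most like Neat1 were Cpeb1 (0.968), Mafg (0.946), Otud5 (0.937), Lrrfip2 (0.900) and Sord (0.898), and those most like Malat1 were BC005537 (0.908), Rhog (0.883), Akirin2 (0.873), Sin3b (0.871) and Tsr2 (0.870). All these genes share the same libraries, scaling and group differences.

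Genes of the same pathways were then counted from 9 lists. Other long RNAs that host snoRNAs (9 of 14 measured) were mixed with Tubastatin A: 4 were lower, 2 were higher and 3 were not called, with a median log2 change of -0.26. Snhg5 was 3.25 ± 0.607 RPKM with Tubastatin A against 11.1 ± 2.34 RPKM with vehicle (log2 change -1.50, limma, adjusted p = 3.31e-05), and Snhg4 was 1.22 ± 0.340 against 4.82 ± 0.372 RPKM (-1.40, adjusted p = 1.2e-05). Snhg11 was higher, at 0.792 ± 0.371 RPKM with Tubastatin A against 0.00159 ± 0.00074 RPKM with vehicle (0.82, limma, adjusted p = 0.000134). So was Snhg18, named after its values were seen, at 1.28 ± 0.425 RPKM with Tubastatin A against 0.292 ± 0.114 RPKM with vehicle (0.80, adjusted p = 0.000289). The vehicle level of Snhg11 amounts to 1 read or fewer. The hosts that code for protein fell in 18 of 24 cases and rose in 1, with a median of -0.71. Among them Rcc1, the nucleotide exchange factor of Ran, was at 26.8 ± 1.25 RPKM with Tubastatin A against 72.2 ± 8.40 RPKM with vehicle (-1.39, limma, adjusted p = 4.92e-07). Ncl, the nucleolar protein nucleolin, was at 95.5 ± 1.45 against 189.0 ± 6.90 RPKM (-0.98, adjusted p = 0.000208).

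Genes for core proteins of snoRNA particles and for factors that help assemble them, together called snoRNP proteins here, went the same way. Of 17 measured snoRNP proteins 13 were lower with Tubastatin A and 1 was higher, with a median of -0.73. Dkc1, the pseudouridine synthase of H/ACA particles, was at 31.6 ± 1.36 RPKM with Tubastatin A against 87.3 ± 3.40 RPKM with vehicle (-1.44, limma, adjusted p = 1.37e-07). Nop10, another subunit of those particles, was at 36.4 ± 2.78 against 114.4 ± 20.3 RPKM (-1.62, adjusted p = 3.81e-05). Ribosomal protein genes, which share the pyrimidine start with many hosts, were lower in 67 of 78 cases and higher in 0, with a median of -0.81. These shares stand beside the 29.7% of all genes called lower.

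The same lists were counted in vehicle against fresh cells. Of the snoRNP proteins 13 of 17 were higher (median 0.98), of the coding hosts 14 of 24 (0.55), and of the ribosomal proteins 50 of 78 (0.64), against 32.0% of all genes. The 6 hosts studied here had 1 higher and 3 lower. Other long host RNAs had 1 higher, 2 lower and 6 not called, with a median of -0.34 that turned to 0.03 when scaled by table reads. The 3 protein lists kept a positive median under every scaling tried.

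The surroundings of the nuclear RNAs were counted too. Of 30 measured paraspeckle proteins 18 were lower with Tubastatin A and 2 were higher (median -0.64), where 29.7% of all genes were lower and 29.6% higher. Pspc1, a core protein of the paraspeckle, was at 1.32 ± 0.133 RPKM with Tubastatin A against 5.82 ± 0.219 RPKM with vehicle (log2 change -1.55, limma, adjusted p = 7.01e-07). Rbm3, a cold-inducible RNA-binding protein, was at 11.9 ± 1.59 against 54.1 ± 7.75 RPKM (-2.10, adjusted p = 1.08e-07). Nuclear speckle proteins were split, with 9 of 21 lower and 5 higher (median -0.34), beside the same 29.7% and 29.6% of all genes. The splicing factor Srsf1 was at 32.8 ± 4.05 RPKM with Tubastatin A against 79.9 ± 2.30 RPKM with vehicle (-1.27, limma, adjusted p = 3.2e-05), and the kinase Clk4, which phosphorylates such factors, was at 11.0 ± 0.850 against 5.60 ± 0.133 RPKM (0.86, adjusted p = 1.4e-05).

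Of 8 other measured nuclear or regulatory long RNAs, 4 were higher with Tubastatin A and 0 lower, with a median of 0.47, beside 29.6% and 29.7% of all genes. In vehicle against fresh cells 5 of the 8 were lower, as were 35.0% of all genes. Meg3, an imprinted long RNA, averaged 1.19 ± 0.336 RPKM with Tubastatin A, 0.0925 ± 0.00966 RPKM with vehicle and 8.15 ± 0.829 RPKM in fresh cells. It was higher with Tubastatin A than with vehicle (0.99, limma, adjusted p = 3.13e-05). Firre was at 1.78 ± 0.452 RPKM with Tubastatin A against 0.608 ± 0.220 RPKM with vehicle (0.79, adjusted p = 0.00795).

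Nonsense-mediated decay factors, which limit the spliced RNA of hosts such as Gas5, were lower in 7 of 21 cases and higher in 2. Their median log2 change was -0.20. The share called lower was close to the 29.7% of all genes, and the share called higher was below the 29.6%. Smg9 was at 8.42 ± 0.189 RPKM with Tubastatin A against 14.9 ± 0.388 RPKM with vehicle (-0.76, limma, adjusted p = 1.67e-05). Regulators of growth around mTORC1 and Myc had 6 of 21 higher and 4 lower (median 0.12), no larger a share in either direction than the 29.6% and 29.7% of all genes. The Myc antagonist Mxd1 was at 3.34 ± 0.288 RPKM with Tubastatin A against 0.278 ± 0.0398 RPKM with vehicle (1.76, limma, adjusted p = 1.55e-07), and Mycn, a Myc family member, was at 1.12 ± 0.140 against 4.21 ± 0.919 RPKM (-1.28, adjusted p = 9.27e-06).

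**Figure D5:**
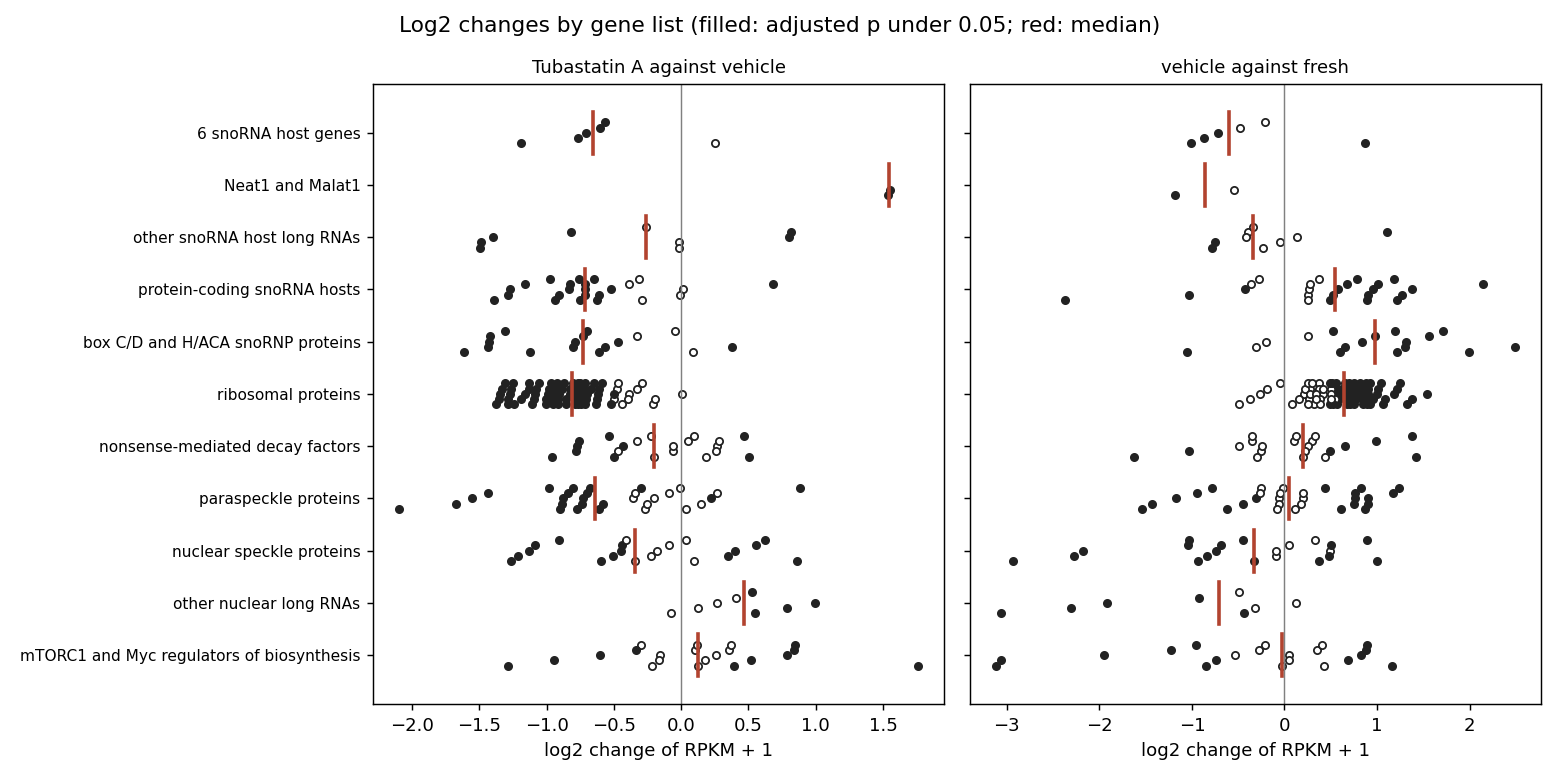
Log2 change of RPKM + 1 of every measured gene of the 6 hosts, of Neat1 and Malat1 and of the 9 lists, in Tubastatin A against vehicle (left) and vehicle against fresh (right); filled points have an adjusted p under 0.05 and red lines are medians. Most ribosomal and snoRNP protein genes lie below 0 on the left (medians -0.81 and -0.73) and above 0 on the right (0.64 and 0.98), and the 6 hosts have negative medians in both.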

How the data were processed

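The authors deposited a table of RPKM for 10 libraries of bulk RNA made with SMART-Seq v4 and Ovation Ultralow kits, per the labels' protocols. The submitters' processing notes name the build mm10 and the tools edgeR, STAR, Trim Galore and Subread's featureCounts, with no versions or settings. Multiplying RPKM by GENCODE M21 exon lengths and 1 factor per library gave whole reads (within 0.05) in every library for 12209 genes (95.4%). The factors are the scaled library sizes used above. No value was exactly 0, so the lowest values stand in for zeros.

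All 12803 genes were fitted as log2(RPKM + 1) with limma 3.58.1 (R 4.3.3), with a variance trend and 1 model of 3 groups over 10 libraries. Calls have a Benjamini-Hochberg adjusted p under 0.05. The fit was tested on simulated data. The rest used pandas 2.3.3, numpy 2.4.6, matplotlib 3.10.9 and scipy 1.17.1 in Python 3.11.15.

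The genes and lists were chosen with earlier results of these data known. Named list genes are the 4 with the lowest p in Tubastatin A against vehicle, of which the text gives some, and the 5 genes most like a pattern by Pearson's r. Alternatives were pseudocounts of 0.1 and 5, a filter at a mean of 1 RPKM, 4 scalings, only the groups compared, a replicate block, a threshold of 0.01, limma's voom on the recovered reads of genes with at least 10 reads on average, and each library left out. Ratios used exact permutation tests. A neighbouring gene is not reported here.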

Additional observations from a re-analysis of the deposited data

Results flagged for a closer look

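Zfas1 had a library far from the others of its group. With Tubastatin A, replicate 3 was at 6.22 RPKM, while the other 3 treated libraries lay between 3.97 and 4.07 RPKM. The gap made up 0.954 of the group's range, above Dixon's critical value of 0.829 for 4 samples. Among the 8 genes with 4 treated libraries each, it was the 1 such case, and chance alone gives such a value in about 1 of 20 groups.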

How the results depend on the processing

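In Tubastatin A against vehicle, Snhg6, Snhg8, Neat1 and Malat1 kept direction and side of the threshold under all 21 alternatives. Scaling had the most effect on comparisons with fresh cells, where the median log2 change of all genes was up to 0.43 in place of -0.03. In what follows, values for 3 scalings are given in the order table reads, equal summed RPKM, and equal summed RPKM without mitochondrial and the 10 top genes. The log2 changes of Tubastatin A against fresh were 0.05, 0.09 and -0.00 for Gas5, 1.03, 1.07 and 0.98 for Malat1 (now called), 0.29, 0.32 and 0.24 for Snhg6 (turned round) and -0.38, -0.35 and -0.43 for Zfas1 (not called). Those of vehicle against fresh were -0.60, -0.61 and -0.75 for Malat1 and -0.26, -0.26 and -0.37 for Snhg12, not called, and 0.33, 0.33 and 0.19 for Zfas1, turned round. Under the first 2 scalings Gas5 was -0.28 and -0.29, not called, and Snhg1 was 0.05 in both, turned round. Under the last, Gas5 in Tubastatin A against vehicle was 0.43 and called. Of the 8 genes, 2 were called higher and 3 lower in Tubastatin A against fresh under each of the 3, and 1, 1 and 2 were called lower in vehicle against fresh. Of all genes, 6916, 7006 and 6636 were higher and 2590, 2486 and 2685 lower in Tubastatin A against fresh, and 6365 and 6280 were higher and 2905 and 2894 lower in vehicle against fresh under the first 2.

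Neat1 in vehicle against fresh passed the threshold with only the 2 groups compared (-0.54), at a pseudocount of 0.1 (-0.95) and by voom (-1.03), and Malat1 lost its call with only 2 groups (-1.18). Snhg12 in Tubastatin A against vehicle was -0.22 and not called at a pseudocount of 5. At a threshold of 0.01, Snhg1 (-0.71), Snhg12 (-0.57) and Zfas1 (-0.76) lost their calls in Tubastatin A against vehicle, and Malat1 (-1.18) and Snhg12 (-0.71) in vehicle against fresh, which left 2 genes called lower in each.

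With 1 library left out at a time, these results changed a call, a count or a sign. In Tubastatin A against vehicle the log2 changes ranged from -0.83 to -0.58 for Snhg1, from -0.73 to -0.40 for Snhg12 and from -0.96 to -0.65 for Zfas1, and 2 to 5 genes were called lower, 2 of them without vehicle replicate 3. In vehicle against fresh they ranged from -1.55 to -0.72 for Malat1, from -0.65 to -0.39 for Neat1, from -0.70 to -0.22 for Snhg1, from -0.88 to -0.51 for Snhg12 and from -0.35 to 0.03 for Zfas1, and 2 to 5 genes were called lower, 2 of them without vehicle replicate 1. In Tubastatin A against fresh, Snhg6 ranged from -0.53 to -0.07 and was called lower without fresh replicate 1, and 5 to 6 genes were called lower. The cause of these changes was not tested.

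The labels number the replicates of each group but do not say that the numbers pair samples, and the main fit did not pair them. Deviations of same-numbered libraries correlated at 0.387, 0.026 and 0.312 between Tubastatin A and vehicle. The values were 0.363, 0.244 and -0.192 between vehicle and fresh, and 0.236, -0.105 and 0.029 between Tubastatin A and fresh. Some libraries correlated best with their own number and others did not. With so few libraries per group, these correlations cannot decide whether the numbers mark pairs. With the replicate number as a block, Malat1 in Tubastatin A against fresh was 0.47 and called. Its standard error was 0.154, in place of 0.421 without the block. Neat1 in vehicle against fresh was -0.54 and called, and 2 of the 8 genes were higher in Tubastatin A against fresh. The block changed no other call of the 8 genes. Of the 8 genes, Snhg8 rests on the fewest reads, and Snord87, Prss12, Snhg9 and Snhg11 beside them rest on fewer still in some groups.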
